A study of Mus musculus with 6 samples.

Results

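The cytosolic ribosomal protein genes were examined in tumor-associated macrophages (TAMs) sorted from melanomas that could or could not make prostaglandins through cyclooxygenase. Members were taken by name: every row of the count table called Rpl or Rps with a number and at most a short suffix, the stalk genes Rplp0, Rplp1 and Rplp2, and Rpsa and Fau. This rule found 88 of 39179 rows, 51 of the large subunit and 37 of the small subunit, and used no measured value. Of these, 82 had enough counts for a test, and Rpl3l, Rpl10l, Rpl39l, Rps3a2, Rps12l1 and Rps12l2 did not. GENCODE lists 4 of the 88 as processed pseudogenes (Rps3a2, Rps3a3, Rps12l1 and Rps12l2), and the row named Rpl24 carries the identifier of another gene, as described with its counts. The 3 Ptgs-competent libraries came from tumors of a melanoma cell line driven by Braf V600E, with Ptgs1 and Ptgs2 (COX-1 and COX-2) intact. The 3 Ptgs-deficient libraries came from tumors of the same line after both genes were knocked out by CRISPR/Cas9. All tumors grew in C57BL/6 hosts aged 8 weeks, the knockout is in the tumor cells and not in the macrophages, and each library is a pool of tumors. TAMs were sorted as CD45+ CD11b+ F4/80+ cells that lacked Ly6G and NK1.1 and had little or no Ly6C.

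Ribosomal proteins coat the ribosomal RNA of the small (Rps) and large (Rpl) subunits, and most are needed for the subunit to be built or exported from the nucleolus. Each protein is needed in about the same number as the others, and cells control the whole set together, mostly by translation: the messenger RNAs start with a 5′ terminal oligopyrimidine (TOP) tract, a C followed by a run of C and U, which LARP1 and the kinase mTORC1 read. In macrophages the set is among the most abundant of all messages. A few members are known for roles outside the ribosome, among them Rpl5 and Rpl11, which bind Mdm2, and Rpl13a, a translational silencer in interferon-gamma-treated monocytes.

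The start of a ribosomal protein gene carries the letters that give its message the TOP tract. RefSeq start regions (GRCm38.p6, 250 bases before to 50 after the annotated start) were found for 64 of the 88 members. A run of at least 8 C or T within 20 bases of the start, read on the coding strand, was present in 31 of 64 members (48.4%) and in 18.4% of all 27025 genes with an entry. The letters CTTTCC, on either strand of the 300-base region, were found in 33 of 64 members (51.6%) and in 29.3% of all 27025 genes with an entry. For CTCTTT, which can overlap the former by shared letters, this was the case in 29 of 64 members (45.3%) and in 25.6% of all 27025 genes with an entry. These are matches of letters in an annotated window and not measured start sites. The windows below reach 15 bases to each side of the annotated start, 5′ to 3′, with the longest run of C and T in capitals where it holds at least 8. They are shown for members on which the results turn: Rps6 and Rpl35, described with higher fitted levels, Rpl38, described with a lower one, the abundant stalk gene Rplp2, Fau as a member with little spread, and Rpl10, whose window holds no such run.
Rps6 (chr4:86857353-86857382, minus strand): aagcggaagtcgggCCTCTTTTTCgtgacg
Rpl35 (chr2:39005117-39005146, minus strand): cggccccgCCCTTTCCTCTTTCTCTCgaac
Rpl38 (chr11:114668565-114668594, plus strand): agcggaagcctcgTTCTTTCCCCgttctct
Rplp2 (chr7:141447636-141447665, plus strand): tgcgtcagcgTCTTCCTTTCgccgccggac
Fau (chr19:6057932-6057961, plus strand): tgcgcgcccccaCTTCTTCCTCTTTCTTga
Rpl10 (chrX:74270801-74270830, plus strand): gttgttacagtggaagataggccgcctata
A run of this kind was present in Rps6 and Rpl35, which were fitted higher in the Ptgs-deficient group, and in Rpl38, which was fitted lower.

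Libraries held between 4431184 and 8760679 counts. Coverage of the genes tested was uneven: 6.62, 21.6 and 19.6% of them had 0 counts in Ptgs-competent replicates 1, 2 and 3, and 17.2, 3.40 and 7.24% in Ptgs-deficient replicates 1, 2 and 3. Ptgs-competent replicate 2 held the lowest level of 48 of the 82 members tested, and Ptgs-deficient replicate 3 the highest level of 32. Of the macrophage identity list, 15 of 15 genes passed the filter, with a summed level of 18711, 17417 and 8669 CPM against 22376, 20907 and 26430.1 CPM. The defining melanocyte genes Pmel, Dct, Tyr, Tyrp1, Mlana and Sox10 had 0 counts throughout. Ranges of other lists were apart between Ptgs-competent (named first) and Ptgs-deficient replicates: platelet and megakaryocyte genes summed to 11240.1, 9836 and 6114 CPM against 3013, 2518 and 3076 CPM, neutrophil genes to 1816, 2200.4 and 1150.5 CPM against 565, 471 and 438 CPM (Ly6g, Elane and Mpo at 0), and erythroid genes to 662, 623 and 236 CPM against 19.0, 120.0 and 112 CPM. Cycling genes summed to 561, 650.1 and 1826 CPM against 358, 446 and 406 CPM, melanoma and stromal genes to 588, 676 and 1253 CPM against 920.1, 739 and 705 CPM, and mitochondrially encoded genes to 17232, 41074 and 67906 CPM against 22042, 26954 and 23050.3 CPM. The melanoma and stromal sum mixes both directions: of 9 genes tested, 7 were fitted lower in the Ptgs-deficient group and 2 higher. Ranges stood apart for 4 lower (44.4%, against 8.01% of all genes tested) and 2 higher (22.2%, against 11%). B cell genes summed to 6.95, 26.6 and 0 CPM against 15.6, 29.8 and 100.1 CPM (Cd79a and Ms4a1 at 0). NK and T cell genes were low throughout but apart in the other direction, at 2.12, 2.12 and 2.26 CPM against 32.9, 31.7 and 15.8 CPM (Ncr1, Cd3e, Cd4 and Cd8a at 0). The part of these in the values below was not tested.

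Summed over the set, ribosomal protein messages made up overlapping shares of the counts of TAMs from both kinds of tumor. Their 88 rows summed to 10.7, 8.18 and 12.01% of all counts in Ptgs-competent replicates 1, 2 and 3, and to 10.4, 11.1 and 12.4% in Ptgs-deficient replicates 1, 2 and 3. The ranges overlapped, and the lowest value was that of Ptgs-competent replicate 2. The means were 10.3 ± 1.94% and 11.3 ± 1.01% (SD, n = 3 each), a difference of 0.977 percentage points that lies within the SD of each group. Without Ptgs-competent replicate 2 the difference was -0.0817 percentage points. A single row, Gm26924, held 10.4, 11.6 and 6.83% of the Ptgs-competent and 4.63, 3.31 and 1.82% of the Ptgs-deficient libraries. With that row left out of the totals, the ribosomal protein share was 11.4 ± 1.89% and 11.6 ± 0.870% (SD, n = 3 each), a difference of 0.282 percentage points. In sorted bulk samples, fewer cells and less RNA per cell cannot be told apart.

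The shares of both subunits overlapped between the groups. Large-subunit rows made up 5.76, 4.402 and 6.18% and 5.60, 5.87 and 6.39% of counts in the Ptgs-competent and Ptgs-deficient libraries, and small-subunit rows 4.96, 3.78 and 5.83% and 4.77, 5.24 and 5.97%. The ratio of large-subunit to small-subunit counts stayed between 1.06 and 1.17 in the 6 libraries. Its mean was 1.13 ± 0.0591 and 1.12 ± 0.0513 (SD, n = 3 each) in the Ptgs-competent and Ptgs-deficient group.

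**Figure D1:**
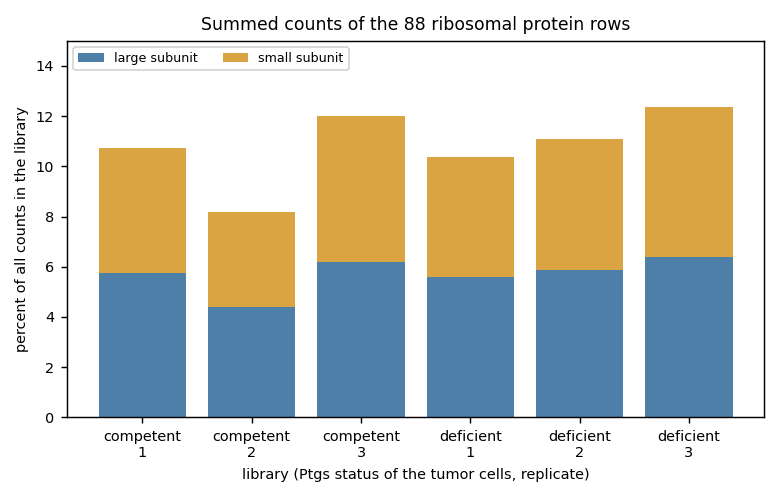
Stacked bars give the percent of all counts in each library (vertical axis) that fell on large-subunit and small-subunit ribosomal protein rows, for 3 Ptgs-competent and 3 Ptgs-deficient libraries (horizontal axis). The 6 bars reach between 8.18% and 12.4%, and those of the groups overlap.

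Levels are given as TMM-scaled counts divided by library size (CPM), for Ptgs-competent replicates 1, 2 and 3 first and, after the word against, for Ptgs-deficient replicates 1, 2 and 3. The kit reads the 3′ end, so that a level counts messages and is not divided by length. The 6 most abundant members were Rps21, Rpl37a, Rps29, Rplp1, Rpl23 and Rpl37. Rps21, a small-subunit surface protein, was at 8394, 5124 and 8593 CPM against 6203, 6198 and 7028 CPM. Rpl37a, a zinc-binding protein of the large subunit, was at 8119.5, 5282 and 5507 CPM against 6766, 5047 and 6769 CPM. Rps29, likewise zinc-binding and part of the small-subunit head, was at 5236, 3697 and 3214 CPM against 4493, 4518 and 5298 CPM. In each of these 3 genes the groups overlapped. Rplp1, an acidic protein of the stalk that recruits translation factors, was at 3826, 3055 and 4997 CPM against 3527, 3229 and 3780.3 CPM. Rpl23 was at 4057, 2813 and 3539 CPM against 2976, 3682 and 3732 CPM and Rpl37 at 3443, 2236 and 3163 CPM against 3172, 2988 and 3533 CPM. Over the 6 libraries, the range of each of these genes overlapped that of its neighbor in the order. The 10 highest rows held between 33.0% and 40.6% of the ribosomal protein counts of a library.

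**Figure D2:**
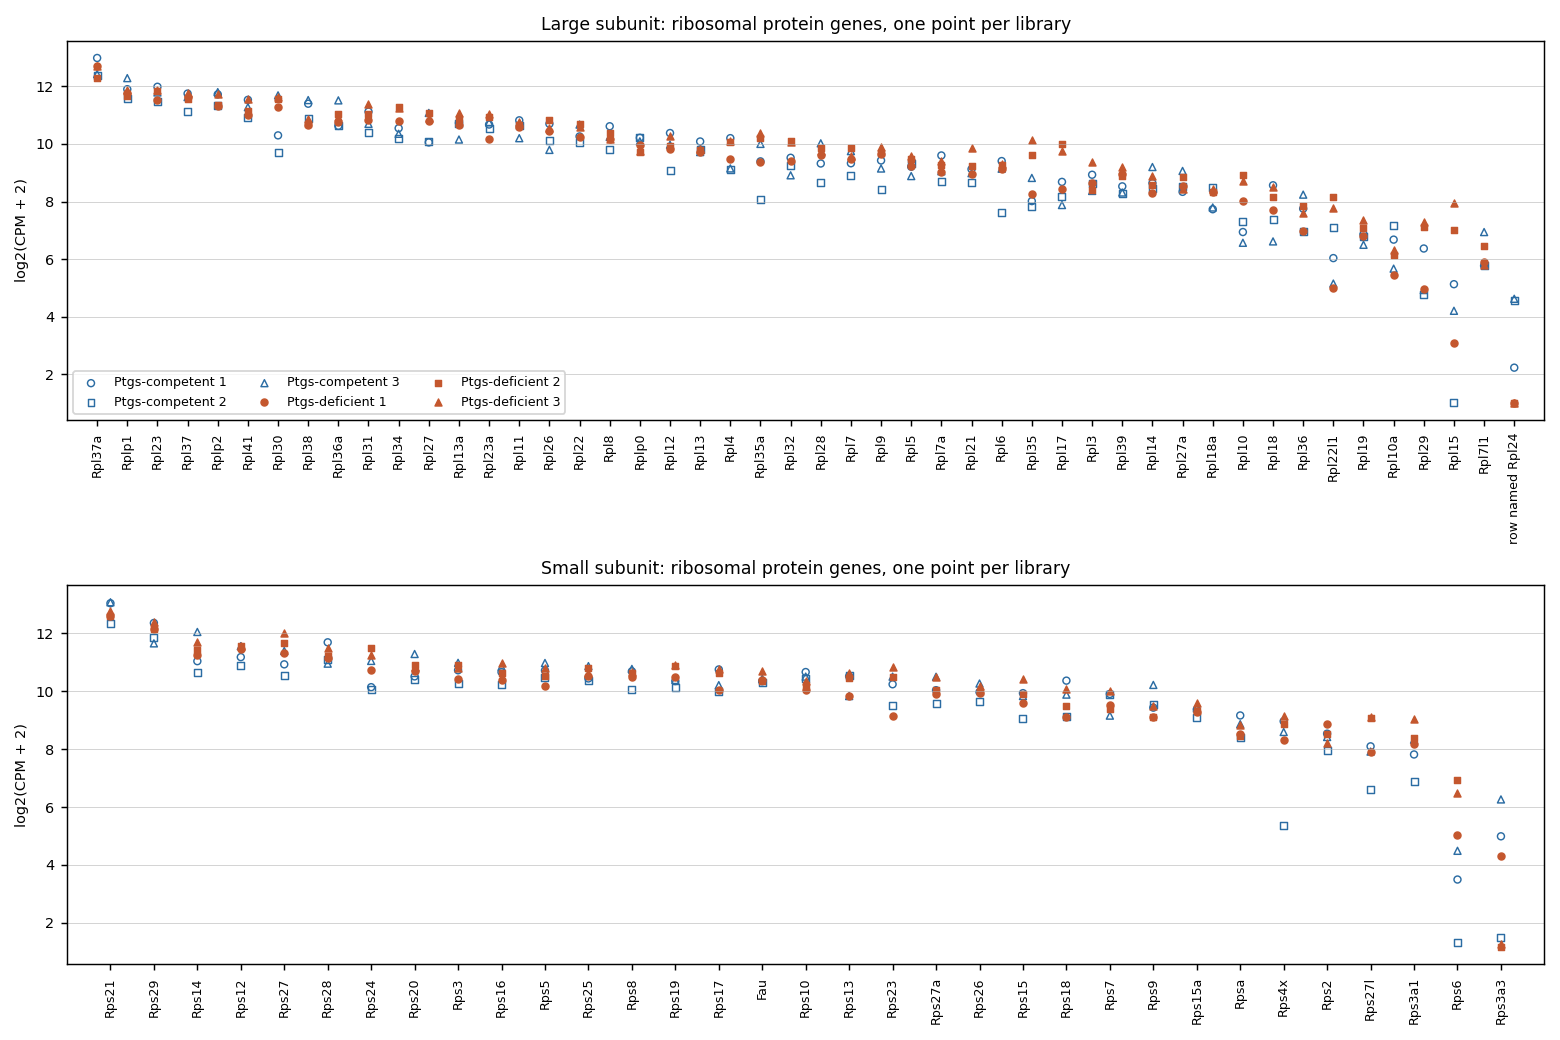
Each point is the level of a ribosomal protein gene in 1 library, as log2(CPM + 2) on the vertical axis, with large-subunit rows (top) and small-subunit rows (bottom) ordered by mean level on the horizontal axis. Open blue symbols are Ptgs-competent and filled orange symbols Ptgs-deficient libraries, and circles, squares and triangles are replicates 1, 2 and 3. Most members form a narrow band in which both colors mix, Rpl10 and Rps6 show all 3 orange points above the blue ones, and the open square of Ptgs-competent replicate 2 often lies lowest.

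The members varied little between libraries of a group compared with other genes. The median SD of log2(CPM + 2) within a group was 0.348 for the 82 members and 1.17 for all 8793 genes tested, and the median standard error of the fold change was 0.333 and 1.47. The members were also more abundant, with a median level of 1014 CPM against 30.6 CPM over all genes, and over all genes the spread was smaller at higher levels, as the plot of spread by level shows. Pearson correlations of the libraries over the 82 members lay between 0.830 and 0.989, and over all genes tested between 0.505 and 0.805, as a description, since genes are not independent and share each library's depth.

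The 3 members with the smallest spread over the 6 libraries were Rpl13, Fau and Rps15a. Rpl13 was at 1085, 890.4 and 840.3 CPM against 845, 884 and 904 CPM. Fau, which encodes a ubiquitin-like protein fused to eS30, was at 1295, 1244 and 1375 CPM against 1338, 1308 and 1662 CPM. Rps15a, of the small subunit, was at 659, 547 and 677 CPM against 613, 639 and 776 CPM. The 3 with the largest spread, Rpl15, Rps3a3 and Rps6, were all low. Rpl15, a core protein of the large subunit, had 209, 0 and 77 counts against 36, 1076 and 1188 counts (log2 fold change 2.93 ± 1.57 (SE), unadjusted p 0.0919, edgeR adjusted p 0.754). Its high libraries were Ptgs-deficient replicates 2 and 3, and Ptgs-deficient replicate 1 lay among the Ptgs-competent libraries. The pseudogene Rps3a3 had 189, 5 and 351 counts against 100, 2 and 2 counts.

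**Figure D3:**
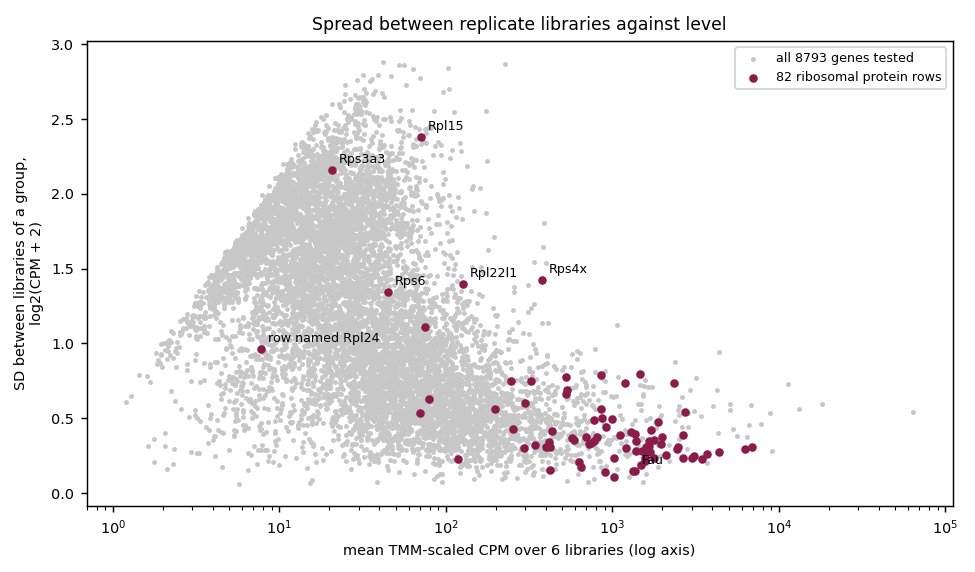
Each point is a gene, with its mean level over 6 libraries on the horizontal log axis and, on the vertical axis, the SD of log2(CPM + 2) between the 3 libraries of a group, pooled over both groups. Gray points are all genes tested and dark red points the 82 ribosomal protein rows, most of which lie at the abundant end with an SD near the median of 0.348; Rpl15, Rps3a3, Rpl22l1, Rps4x and Rps6 lie far above it.

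The comparison of the groups asked whether single ribosomal protein genes differed between TAMs of Ptgs-deficient and Ptgs-competent tumors. A gene was called when its FDR was at most 0.05 and its log2 fold change reached 1.5 up or down. By this rule edgeR's quasi-likelihood test called 0 of the 82 members, where 0.216% of all genes tested were called. At an unadjusted p under 0.05 there were 8 members (9.76%), against 8.83% of all genes, a share of members near the background. The likelihood ratio test and DESeq2 called 3 members each, with Rpl10 and the row named Rpl24 among them, where they called 2.74% and 3.73% of all genes. Without a filter on low counts the quasi-likelihood test called 3, with Rpl10 and Rpl15 among them, where it called 1.89% of all genes. With the replicate number as a block it called 1 member and 0.876% of all genes. The number of members at an unadjusted p under 0.05 was 16 of 82 without Ptgs-competent replicate 3, where the share of all genes was 8.86%. It was 2 without Ptgs-deficient replicate 2 and 2 without Ptgs-deficient replicate 3, where the shares of all genes were 6.72% and 6.74%.

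Fold changes of the set were small and more often positive than negative. The fitted level was higher in the Ptgs-deficient group for 58 of 82 members (70.7%) and for 50.7% of all genes tested. The median log2 fold change was 0.15 for the members and 0.02 for all genes. This order turned with the replicate number as a block, which gave 0.17 for the members and 0.26 for all genes. For 58 members (70.7%) the log2 fold change lay within 0.5 of 0, against 33.7% of all genes. Without the row named Rpl24 the median was 0.16, with 58 of 81 higher. The median was 0.29 for the 48 large-subunit rows and 0.10 for the 34 small-subunit rows. Without Ptgs-competent replicate 2, the library in which members were lowest most often, the median of all genes was 0.03, that of the set was 0.04 and 45 members were higher.

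**Figure D4:**
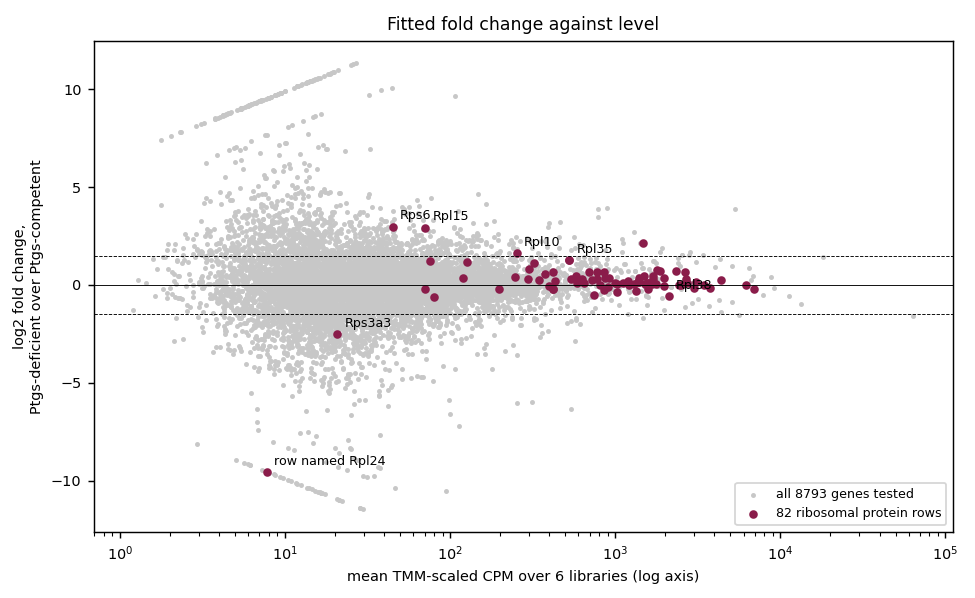
Each point is a gene, with its mean level over 6 libraries on the horizontal log axis and its fitted log2 fold change, Ptgs-deficient over Ptgs-competent, on the vertical axis. Gray points are all genes tested, dark red points the 82 ribosomal protein rows, and dashed lines mark 1.5 and -1.5; most of the abundant members lie close to 0, Rpl10 lies above the upper line at 1.64, and Rps6, Rpl15, Rps3a3 and the row named Rpl24 lie outside the lines at low levels.

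For 11 members the CPM ranges of both groups stood apart. Of these, 7 (8.54%) were higher in the Ptgs-deficient libraries, where the background was 11% of all genes, and Rpl10, Rps6, Rpl34, Rpl39, Rpl9 and Rps19 were among them. The other 4 (4.88%) were lower, where the background was 8.01%, namely Rpl38, Rps10, Rplp0 and the row named Rpl24. Both shares were below the background. With another denominator, each member was also expressed as a percent of the ribosomal protein counts of its library. On that scale all 7 higher genes again did not overlap, as did 3 of the 4 lower ones (Rplp0 overlapped), and the numbers were 11 higher and 7 lower. Over all genes tested, expressed by the same denominator, 9.5% were higher and 9.1% lower without overlap, against 13.4% and 8.54% of the members.

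Rpl10 (chrX:74270812-74273135, plus strand, GRCm38; protein coding), which encodes uL16, a protein added late to the large subunit beside its catalytic center, was at 121, 157 and 92.7 CPM against 254, 477 and 422 CPM. The groups did not overlap. The means were 123 ± 32.2 and 384 ± 116 CPM (mean ± SD, n = 3 each). The fitted log2 fold change was 1.64 ± 0.39 (SE), at an unadjusted p of 0.00184 and an edgeR adjusted p of 0.158 that ranged from 0.00943 to 0.631 over the alternatives. Rps6 (chr4:86854660-86857412, minus strand; protein coding), the small-subunit protein that S6 kinases phosphorylate downstream of mTORC1, was among the least abundant members. It had 59, 3 and 96 counts against 172, 1033 and 425 counts, again with no overlap, and the lowest library was Ptgs-competent replicate 2. Its log2 fold change of 2.99 ± 1.24 (SE) came with an unadjusted p of 0.0370 and an edgeR adjusted p of 0.488.

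Large-subunit genes and an Rps27 paralog followed, with only Ptgs-deficient replicates 2 and 3 high in most of them. Rpl17 (chr18:74998558-75003381, plus strand), at the rim of the peptide exit tunnel, was at 409, 290.1 and 233 CPM against 342, 1015 and 867 CPM (log2 fold change 1.25 ± 0.44 (SE), unadjusted p 0.0163, edgeR adjusted p 0.375). Rpl35 (chr2:39001580-39005624, minus strand), a neighbor of Rpl17 at the tunnel exit, was at 256, 227 and 449.5 CPM against 307, 784 and 1132 CPM (log2 fold change 1.25 ± 0.48 (SE), unadjusted p 0.0269, edgeR adjusted p 0.415). In both genes Ptgs-deficient replicate 1 lay within the range of the Ptgs-competent libraries. Rps27l, a p53-inducible paralog of Rps27, was at 272, 95.4 and 239 CPM against 239, 540.4 and 553 CPM (log2 fold change 1.14 ± 0.48 (SE), unadjusted p 0.0382, edgeR adjusted p 0.493), with the same library inside that range. Rpl34 (chr3:130726831-130730398, minus strand) was higher in all 3 Ptgs-deficient libraries, at 1495, 1173 and 1305 CPM against 1763, 2507 and 2457 CPM (log2 fold change 0.76 ± 0.29 (SE), unadjusted p 0.0270, edgeR adjusted p 0.415). Ptgs-deficient replicates 2 and 3 were also, with Ptgs-competent replicate 1, the libraries with the fewest genes at 0 counts, and the part of coverage in these values was not tested.

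Other members had an unadjusted p between 0.05 and 0.1. Those fitted higher were Rpl39 (log2 fold change 0.64 ± 0.30 (SE)), Rpl9 (log2 fold change 0.69 ± 0.33 (SE)), Rps27 (log2 fold change 0.69 ± 0.34 (SE)), Rpl32 (log2 fold change 0.65 ± 0.32 (SE)), Rps24 (log2 fold change 0.70 ± 0.37 (SE)) and Rps3a1 (log2 fold change 0.79 ± 0.43 (SE)), with edgeR adjusted p between 0.608 and 0.764. The member fitted lower in that range was Rpl38 (chr11:114668524-114672331, plus strand), known from a mouse skeletal mutant for its role in translating Hox messages. Rpl38 was at 2697, 1894 and 2944 CPM against 1600.0, 1655 and 1867 CPM (log2 fold change -0.56 ± 0.30 (SE), unadjusted p 0.0904, edgeR adjusted p 0.748). Its groups did not overlap by a narrow margin, and under upper quartile scaling they did.

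The remaining 66 members tested had an unadjusted p of 0.1 or more. Their fitted levels were higher in the Ptgs-deficient group for 44 and lower for 22, with log2 fold changes from -2.49 (Rps3a3) to 1.25 (Rpl29) and within 0.5 of 0 for 58. Over the alternatives the log2 fold change of Rps3a3 ranged from -6.68 to -1.26 and that of Rpl29 from 0.89 to 1.99. Standard errors of these fold changes reached from 0.273 to 2.12, and mean levels over 6 libraries from 20.7 to 6923 CPM.

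Rplp0 and Rps10 were also lower without overlap. Rplp0, the stalk base and a common reference gene for quantitative PCR, was at 1186, 1190.2 and 1088 CPM against 1002, 845 and 857 CPM. Rps10, of the small-subunit head, was at 1616, 1384 and 1449 CPM against 1042, 1188 and 1315 CPM, and its 3′ end overlaps a read-through gene on the same strand. Neither reached an unadjusted p of 0.1. The partners of Rplp0 in the stalk, Rplp1 and Rplp2, overlapped between the groups in CPM, with Rplp2 at 3378, 2595 and 3564 CPM against 2560.2, 2586 and 3388 CPM. As a percent of ribosomal protein counts, Rplp2 was lower without overlap, and Rplp0 and Rplp1 overlapped.

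**Figure D5:**
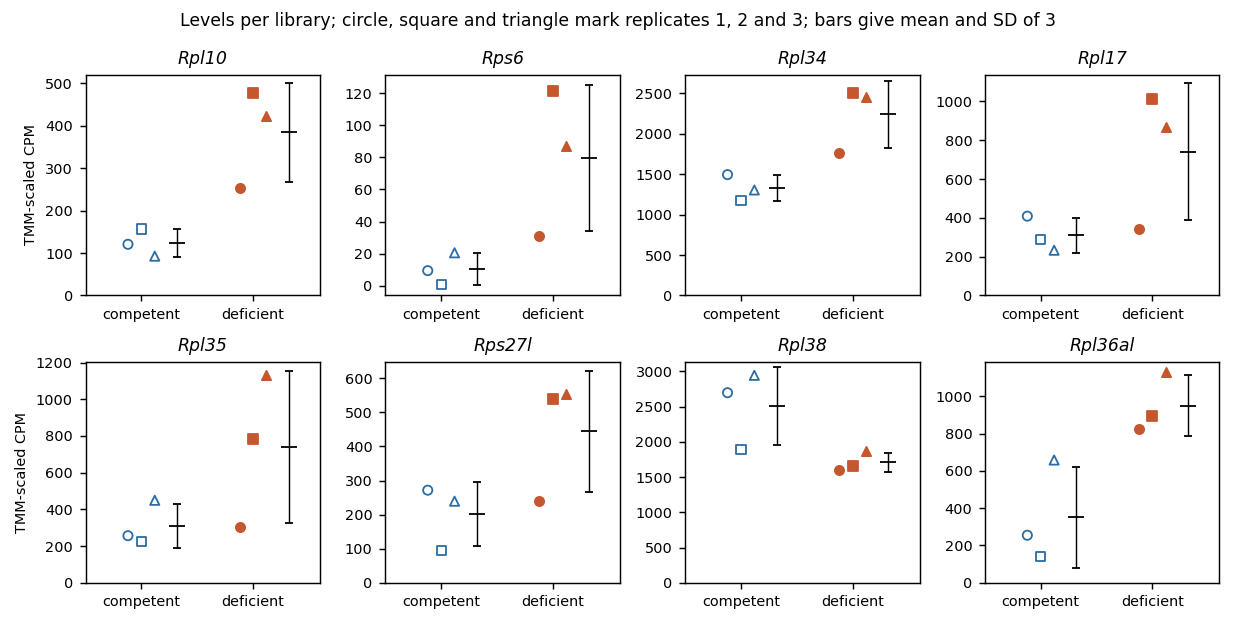
Panels give the TMM-scaled CPM (vertical axis) of 7 members and of Rpl36al in each library of the Ptgs-competent (open blue) and Ptgs-deficient (filled orange) group; circles, squares and triangles are replicates 1, 2 and 3, and bars give the mean and SD of 3. The groups are apart for Rpl10, Rps6, Rpl34, Rpl38 and Rpl36al, while in Rpl17, Rpl35 and Rps27l the orange circle of Ptgs-deficient replicate 1 lies among the blue points.

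The row named Rpl24 must be read apart. Its identifier (ENSMUSG00000022601) belongs to Zbtb11 in GENCODE M21 (chr16:55973883-56008913, plus strand), a zinc finger gene that neighbors Rpl24, and by that identifier its counts belong to Zbtb11. It had 17, 132 and 106 counts against 0, 0 and 0 counts, at least 31.0-fold lower in the Ptgs-deficient group when that group is set to a floor of 3 counts per library (unadjusted p 0.0183, edgeR adjusted p 0.376). The identifier that GENCODE gives Rpl24 is in the table under the name RPL24 (chr16:55966275-55971435, plus strand) and had 0, 0 and 0 counts against 0, 0 and 4 counts. Its 3′ end is shared with the read-through gene Gm28037.

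Divergent paralogs of ribosomal proteins were minor or silent in TAMs of both groups. Rpl3l, the muscle paralog of Rpl3, and Rpl10l, the testis paralog of Rpl10, had 0 counts in every library, which allows at most 0.342 to 0.677 CPM. Rpl39l had 3 counts in Ptgs-competent replicate 1 and 0 elsewhere. Rpl22l1, a paralog of Rpl22 under its control, made up 4.93%, 11.2% and 2.01% against 2.44%, 14.7% and 12.1% of the summed counts of both genes. Rpl7l1 made up 7.56%, 10.0% and 12.3% against 7.46%, 8.44% and 6.61% of the counts of Rpl7 and Rpl7l1. For Rps27l, out of Rps27 and Rps27l, the shares were 12.3%, 6.07% and 8.20% against 8.58%, 14.4% and 11.9%. In these 3 pairs the groups overlapped, and Rpl22l1 was highest in Ptgs-deficient replicates 2 and 3. The Rps4x paralog Rps4l, listed in the table as Rps4y2 and in GENCODE as a processed pseudogene, had 116, 0 and 80 counts against 102, 75 and 25 counts, next to 3155, 244 and 1801 counts against 1771, 3914 and 2745 counts for Rps4x, where Ptgs-competent replicate 2 stood far below the rest.

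The retrogene Rpl36al, which is outside the name pattern and encodes a near copy of Rpl36a, had shares of the pair that did not overlap. It made up 13.9%, 8.14% and 18.4% against 32.05%, 29.7% and 36.6% of the counts of Rpl36a and Rpl36al. Its level was 255, 139.8 and 658 CPM against 823, 896 and 1132 CPM (log2 fold change 1.44 ± 0.51 (SE), unadjusted p 0.0184, edgeR adjusted p 0.376), and over the alternatives its adjusted p ranged from 0.0161 (no filter on low counts) to 0.736. It was called without Ptgs-competent replicate 3, at a log2 fold change of 2.31 and an edgeR adjusted p of 0.0485. Rpl36a itself was at 1581, 1578 and 2922 CPM against 1745, 2117 and 1962 CPM, with overlap. Of the 50-base words in the last 300 bases of Rpl36a, 0% were found in no other annotated gene, against 29.9% for Rpl36al, and Rpl36al overlaps Gm49383 on the same strand, so that reads could be shared or lost in counting.

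Most members with known roles outside the ribosome overlapped between the groups. Rpl5 and Rpl11, which together with the 5S RNA hold Mdm2, were at 589, 637 and 470.2 CPM against 602, 717 and 770.0 CPM and at 1807, 1602 and 1174 CPM against 1543, 1615 and 1734 CPM. Rps3, which has also been described as a partner of NF-kappaB, was at 1687, 1221 and 2015 CPM against 1378, 1908 and 1777 CPM. Rpsa, also known as a laminin receptor, was at 571, 333 and 463 CPM against 362, 352 and 451 CPM. All 4 overlapped. Rpl13a (chr7:45125558-45128761, minus strand), the silencer named above, was at 1698, 1670.4 and 1137 CPM against 1615, 1882 and 2171 CPM, likewise with overlap. Rps27a, a ubiquitin fusion, was at 1046, 766 and 1443 CPM against 963, 1040.2 and 1449 CPM, and Rpl10a, of the L1 stalk, at 100.2, 140.2 and 48.8 CPM against 41.7, 68.9 and 77.9 CPM. Rps19, the gene most often mutated in Diamond-Blackfan anemia, was higher in the Ptgs-deficient group without overlap but by little, at 1303, 1109 and 1336 CPM against 1444, 1849 and 1897 CPM, with an unadjusted p of 0.126 and an edgeR adjusted p of 0.842.

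Ribosomal protein genes have many near-identical copies, which bears on how reads are counted. Uniqueness was read from 1 GENCODE transcript per gene, chosen by its annotation and not by where reads fell. Of the 50-base words in its last 300 bases, a median of 45.0% occurred in no other annotated gene for the members tested. The median was 100% over all genes tested with a transcript. Fewer than 50% of words were unique in 53.7% of members and in 3.68% of all genes. Rps6 had 16.7% unique words, Rpl35 3.98% and Rpl10 0%. Of the 44 members under 50%, 6 had an unadjusted p under 0.05, and of the 37 at 50% or more, 1 did (Rps27l), beside the 8.83% of all genes. Of the 20 members with 100% unique words, 0 did, their median log2 fold change was 0.13, and 15 were fitted higher. Fitted higher were also 35 of the 44 members under 50% and 23 of the 37 at 50% or more. Some chosen transcripts were long, such as 3706 bases for Rps20 with a coding length of 357. Their ends may differ from the 3′ ends that were read, which was not tested. How the authors treated reads with several alignments was not given in the sources used here, and their part in these fold changes was not tested.

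The more abundant members tended to have the shorter coding sequences. Over 80 members with an annotated coding length, the Spearman correlation of mean CPM with coding length was -0.539, and with the percent of unique words 0.113 over 81. The median coding length was 316 bases in the 10 most abundant and 600 bases in the 10 least abundant of these members. These are descriptions across genes that share the same libraries.

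Other genes of the translation machinery were described beside the set. Their lists were written by hand, except those of mitochondrial ribosomal proteins and pseudogenes, which were taken by name. The name rule for the former also took in pseudogene rows such as Mrpl48-ps. None of the 288 genes tested in 6 such lists was called by edgeR's quasi-likelihood test, while the likelihood ratio test called 2 (Ddit4 and Wdr43) and DESeq2 3 (Ddit4, Wdr43 and Eif3a), where these tests called 2.74% and 3.73% of all genes. At an unadjusted p under 0.05, where 8.83% of all genes stood, there were 5 translation factors (9.62%), 7 assembly factors (8.43%), 1 mTORC1 gene (3.23%), 0 mitochondrial ribosomal proteins, 0 pseudogenes and 2 of 5 genes outside the name pattern. Of 52 translation factors, 18 were fitted higher and 34 lower (median log2 fold change -0.19). Of 83 nucleolar and ribosome assembly factors tested, 32 were fitted higher and 51 lower, with a median of -0.42, and 13 were lower without overlap (15.7%, where the background was 8.01%) and 2 higher (2.41%, background 11%). Their medians were thus below that of the ribosomal proteins and below that of all genes; no difference between lists was tested.

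Wdr43, a nucleolar factor for small-subunit assembly, was at 157, 261 and 279 CPM against 54.8, 60.9 and 52.0 CPM (log2 fold change -2.06 ± 0.42 (SE), unadjusted p 6.30e-04, edgeR adjusted p 0.0990). The RNA helicase gene Ddx21 was at 220.4, 354 and 329 CPM against 109, 128 and 129 CPM (log2 fold change -1.30 ± 0.36 (SE)), and Nop58, a core protein of box C/D RNA particles, at 195, 333 and 678 CPM against 124, 147 and 202 CPM (log2 fold change -1.35 ± 0.47 (SE)), with edgeR adjusted p of 0.236 and 0.376. Wdr43 and Ddx21 did not overlap between the groups, and Nop58 did. Over the alternatives the log2 fold change of Nop58 ranged from -1.67 to -0.69, and its highest level was in Ptgs-competent replicate 3. Of the initiation factors, Eif3a was at 497, 488 and 676 CPM against 280.4, 153 and 156 CPM (log2 fold change -1.496 ± 0.37 (SE), edgeR adjusted p 0.171). The scaffold gene Eif4g1 was at 242, 405 and 279 CPM against 158, 109.9 and 159.9 CPM (log2 fold change -1.12 ± 0.37 (SE), edgeR adjusted p 0.346). Eef1g, part of the elongation factor complex, was at 302, 369 and 306 CPM against 151, 132 and 132 CPM (log2 fold change -1.24 ± 0.33 (SE), edgeR adjusted p 0.216). All 3 were lower without overlap.

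Messages with a TOP tract outside the set were given beside the set. Tpt1 was at 393, 409 and 406 CPM against 389, 1493 and 1117 CPM (log2 fold change 1.31 ± 0.45 (SE), unadjusted p 0.0148, edgeR adjusted p 0.360), with Ptgs-deficient replicates 2 and 3 high as in Rpl17 and Rpl35. Eef1a1 was at 91.7, 112 and 100.1 CPM against 55.4, 203 and 218 CPM and Eef2 at 2683, 2140.4 and 1920.3 CPM against 2383, 1881 and 2104 CPM. Pabpc1 was at 442, 747 and 465 CPM against 687, 408 and 259.8 CPM and Rack1, listed as Gnb2l1, at 1398, 1579.9 and 1845 CPM against 1380.0, 1100.5 and 1356 CPM. All but Gnb2l1, which was lower by a narrow margin, overlapped between the groups.

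Of 31 mTORC1 and TOP control genes tested out of 40, 13 were fitted higher and 18 lower (median -0.20). Ddit4, which encodes the mTORC1 inhibitor REDD1, was at 1356, 931 and 736 CPM against 286, 77.8 and 55.0 CPM (log2 fold change -2.85 ± 0.61 (SE), unadjusted p 8.44e-04, edgeR adjusted p 0.111), with 7.40e-09 to 0.425 as the adjusted p under the alternatives. Every Ptgs-deficient library lay below every Ptgs-competent one. Sesn1, a stress-induced gene whose product restrains mTORC1, was at 9.61, 2.76 and 0 CPM against 39.3, 31.9 and 93.5 CPM (log2 fold change 3.72 ± 1.69 (SE), edgeR adjusted p 0.576), and the Rag GTPase gene Rragc at 41.6, 56.9 and 18.1 CPM against 131, 67.2 and 95.9 CPM (log2 fold change 1.33 ± 0.67 (SE), edgeR adjusted p 0.695). Both were higher without overlap. Ubb, a polyubiquitin gene, was at 353, 361 and 84.8 CPM against 732, 564 and 577 CPM (log2 fold change 1.23 ± 0.50 (SE), edgeR adjusted p 0.460).

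The mitochondrial ribosomal proteins, which are nuclear genes of a separate ribosome, had 38 of 71 tested rows fitted higher (median log2 fold change 0.11). Those with the smallest p were Mrpl2 (log2 fold change -1.76 ± 0.87 (SE)), Mrpl52 (log2 fold change -0.75 ± 0.38 (SE)) and Mrps21 (log2 fold change 1.09 ± 0.56 (SE)), with edgeR adjusted p between 0.688 and 0.711. Their median level was 36.5 CPM and their median SD within a group 1.04, so that they were measured with less precision than the cytosolic set. Of 222 rows named as ribosomal protein pseudogenes, 46 were tested and 26 fitted higher, with a median of 0.30. Among these, Rps12-ps9 was at 74.8, 102 and 113 CPM against 126, 238 and 109 CPM, Rpl14-ps1 at 188, 292 and 213 CPM against 162, 201 and 99.2 CPM and Rpl36a-ps3 at 0.315, 0.649 and 1.92 CPM against 21.8, 10.4 and 3.27 CPM. Of these 3, Rpl36a-ps3 did not overlap between the groups. Of the 46 tested, 4 were higher without overlap (8.70%, background 11%) and 3 lower (6.52%, background 8.01%).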

How the data were processed

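RNA of sorted TAMs (800 pg of total RNA per library) was sequenced from the 3′ end (QuantSeq FWD). The authors trimmed reads with BBDUK, fqtrim and cutadapt, aligned them with STAR to GRCm38 (also named mm10 in the submitters' processing notes), assigned them to genes of Ensembl release 86 with featureCounts, and deposited 1 table of raw counts, which holds no columns besides the 6 libraries. The strand setting was not given in the sources used here.

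Tests on these counts were run in R 4.3.3 with edgeR 4.0.16: filterByExpr (minimum count 10, minimum total 15), TMM scaling, glmQLFit and glmQLFTest, two-sided, Benjamini-Hochberg adjustment over all 8793 genes tested, Ptgs-deficient over Ptgs-competent. Standard errors were derived from the fold change and its F statistic. Alternatives were the likelihood ratio test, DESeq2 1.42.0, other scalings, no filter, each library left out, and a replicate block. Spread and correlations used log2(CPM + 2). Library totals set the precision of each count, the floor of 3 counts covers counting error only, and PCR copies cannot be told from molecules. The labels do not say that libraries came from separate experiments, so that p-values measure the spread between these pools. Positions are GENCODE M21 (GRCm38), and start regions are RefSeq (GRCm38.p6).

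The members and lists were chosen with earlier results of these data known. Named genes are the 6 most abundant members, the 6 with the smallest p, divergent paralogs with their partners, members with other known roles, the 3 with the most and the 3 with the least spread, and, from each other list, the 3 with the smallest p. Fold changes are printed for named genes with an unadjusted p under 0.1. Rpl39, Rpl9, Rps27, Rpl32, Rps24, Rps3a1, Rps10, Rpl29 and Gm26924 were named after their values were seen. Some genes under these rules are not reported here.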

Additional observations from a re-analysis of the deposited data

How the results depend on the processing

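The median log2 fold change of the members kept its sign under all 15 alternatives tried (0.04 to 0.28), and the number fitted higher ranged from 45 to 65. With single libraries left out, the difference in the summed share lay between -0.0817 (without Ptgs-competent replicate 2, where its sign turned) and 1.83 percentage points, and under other scalings between 0.282 and 1.51. Members called rose from 0 to 3 under the likelihood ratio test, under DESeq2 and without the filter, and genes called in the other ribosome lists from 0 to 2, 3 and 2; the cause was not tested. With a replicate block, 1 member and 1 gene of the other lists (Ddit4) were called, and calls over all genes rose from 19 to 77. The labels give same-numbered libraries a shared number and do not state a pairing. The correlations of their deviations from the group means were -0.0383, -0.0140 and -0.0270, and no library correlated best with its own number. With 3 libraries per group and much counting error, such correlations cannot decide whether the libraries were paired. Leaving out a library called 0 members each time and between 0 and 1 genes of the other lists (Rpl36al, without Ptgs-competent replicate 3). No fold change printed for a single gene changed sign. The numbers of members without overlap on the scale of ribosomal protein counts, and the values without Gm26924 or the row named Rpl24, were added after the data were seen. Depth limits the paralogs and pseudogenes at a few counts.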
